A study of Mus musculus with 6 samples.

Results

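Circadian clock genes were examined in neutrophils of cGAS-/- mice, which lack cyclic GMP-AMP synthase, the cytosolic sensor of DNA. The set holds 10 core clock and clock-output genes chosen by symbol, *Arntl*, *Clock*, *Per1*, *Per2*, *Cry1*, *Cry2*, *Nr1d1*, *Bhlhe40*, *Dbp* and *Nfil3*, and all 10 were among the 38739 genes of the table. Neutrophils washed from the peritoneum of male cGAS knockout mice in the C57BL/6J background, aged 8 weeks per the methods of the study and injected with thioglycolate 2 h before harvest, were incubated over 2 h in medium without (untreated, 3 samples) or with LPS of *E. coli*, the endotoxin of Gram-negative bacteria (LPS, 3 samples). The LPS dose was 500 ng/mL in the sample labels and 100 ng/mL in the sequencing section of the methods. Every sample carried the deletion and wild-type cells are not analysed here, so the comparison was LPS against untreated within 1 genotype and at 1 time after stimulation. Whether the 3 samples of a group came from separate mice or from pools is not stated, and p-values then measure only the spread between these samples, which may be technical.

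The clock is a feedback loop of transcription. The proteins of *Arntl* (BMAL1) and *Clock* bind together to E-boxes, whose letters are CACGTG, and drive the *Per*, *Cry*, *Nr1d1*, *Dbp* and *Bhlhe40* genes. PER and CRY proteins then repress BMAL1 and CLOCK, REV-ERBα, the product of *Nr1d1*, represses *Arntl* and *Nfil3*, and DBP and NFIL3 compete as activator and repressor at D-box elements of output genes. In mice, BMAL1 in neutrophils is known to drive a daily programme of cell ageing through the chemokine CXCL2 and its receptor CXCR2, and REV-ERBα is known as a repressor of inflammatory genes in macrophages.

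After LPS, *Cry1* and *Nfil3* rose and no other clock gene was called. *Cry1*, a repressor of BMAL1 and CLOCK, was 19.1 times its untreated mean, and *Nfil3*, the D-box repressor, was 12.2 times its untreated mean. The same ratio of means was 19.1 for *Nr1d1* and 8.67 for *Arntl*, which were not called and whose values were low in every sample. Calls followed the limits in the study's methods, that is p under 0.01 before adjustment with a log2 difference beyond 2 either way, in a limma fit to all 23049 genes above 0 in at least 1 sample. By these limits 2 of the 10 clock genes were called higher, where 1.69% of all genes tested were, and 0 were called lower, where 1.31% were. The 10 genes were chosen with earlier results of these data known. Counts of clock genes beside such shares, here and below, are therefore a description and not a test. With a Benjamini-Hochberg adjusted p under 0.05 from limma the same 2 genes passed, against a background of 0.894% higher and 0.946% lower. In a limma fit with the replicate number as a block, 0 clock genes had an adjusted p under 0.05, where 1 of all genes tested passed as higher and 15 as lower. With voom, which the study's methods name, 5 clock genes had an adjusted p under 0.05, *Arntl* (0.0080), *Nr1d1* (0.0057) and *Bhlhe40* (0.020) besides *Cry1* and *Nfil3*. Of all genes, 8941 then passed as higher and 452 as lower. Voom is made for counts, which the deposited values are not, and with it the median log2 change over all genes tested was 0.67. At an unadjusted p under 0.05, 4 clock genes were higher and 0 lower, against 10.3% and 6.66% of all genes. The median log2 change over the 10 clock genes was 0.50, and over all genes tested it was 0.01. Another scaling changed the split of calls over all genes, from 389 higher and 301 lower to 221 higher and 516 lower when each sample was set to the same protein-coding total, and to 1552 and 177 with voom.

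To show the sequence around the start of the genes that rose, the promoter windows of *Cry1* and *Nfil3* are printed with that of *Per1*, the other clock gene whose window holds an E-box. Each window runs from 250 bases before to 50 bases after the start and was taken from RefSeq on build GRCm38.p6, at chr10:85185005-85185304 (minus strand) for *Cry1*, chr13:52980990-52981289 (minus strand) for *Nfil3* and chr11:69098699-69098998 (plus strand) for *Per1*, the more upstream of its windows. They are written 5′ to 3′ in lower case, and the capitals mark the E-box CACGTG, the TGACG letters of the cAMP response element and the AGGTCA letters of the ROR element to which REV-ERBα binds, each on either strand (CGTCA and TGACCT on the other strand).
Cry1: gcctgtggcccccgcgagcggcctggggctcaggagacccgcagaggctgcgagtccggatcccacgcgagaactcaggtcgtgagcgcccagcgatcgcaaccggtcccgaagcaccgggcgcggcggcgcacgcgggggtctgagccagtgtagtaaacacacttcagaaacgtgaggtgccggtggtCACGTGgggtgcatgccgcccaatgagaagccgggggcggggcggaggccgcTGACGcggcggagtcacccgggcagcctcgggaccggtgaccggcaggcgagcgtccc
Nfil3: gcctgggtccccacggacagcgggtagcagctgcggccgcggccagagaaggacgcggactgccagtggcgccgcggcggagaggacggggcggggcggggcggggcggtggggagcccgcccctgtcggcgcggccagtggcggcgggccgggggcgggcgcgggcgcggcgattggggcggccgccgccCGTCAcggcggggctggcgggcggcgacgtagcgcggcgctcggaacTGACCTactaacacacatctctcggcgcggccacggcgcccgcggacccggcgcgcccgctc
Per1: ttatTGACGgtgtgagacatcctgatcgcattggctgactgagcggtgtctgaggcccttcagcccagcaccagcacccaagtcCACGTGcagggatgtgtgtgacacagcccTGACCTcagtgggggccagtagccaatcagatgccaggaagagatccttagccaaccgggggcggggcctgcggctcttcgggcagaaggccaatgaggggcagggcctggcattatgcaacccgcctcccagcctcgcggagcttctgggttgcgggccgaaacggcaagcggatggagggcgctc

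In the *Cry1* window an E-box began 60 bases before the start and TGACG began 8 bases before it. The *Nfil3* window held no E-box and had TGACG on the opposite strand from 59 bases and AGGTCA on the opposite strand from 12 bases before the start. In the *Per1* window the E-box began 166 bases, TGACG 246 bases and AGGTCA on the opposite strand 137 bases before the start. Of the 10 clock genes, 8 had a window, 12 windows in all, and *Per2* and *Bhlhe40* had none. An E-box was found in 2 of these 12 windows and in 7.15% of the 32851 windows of all genes, TGACG in 5 and in 20.81%, and AGGTCA in 4 and in 16.26%. The full cAMP response element TGACGTCA (1.79% of all windows) and the D-box letters TTATGTAA (0.94%) and TTACGTAA (0.12%) were in 0 of the 12. The letters of a window were not tested for binding, and a gene with several starts may use another one in these cells.

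The deposited values are TPM (transcript abundances relative to the total of the sample), which the authors averaged per gene over its transcripts and then scaled with a factor for each sample, and are called scaled TPM here. Read depth cannot be known from them, no counting error can be given, and a level of 1 gene cannot be set against that of another without the number of transcripts averaged. The share of protein-coding genes in all values was 21.6 to 29.0% in untreated and 50.6 to 59.99% in LPS samples. *Cgas*, the deleted gene, had listed values of 0.180 to 0.307 scaled TPM untreated and 0.0286 to 0.184 with LPS. The cell type label was checked with marker genes. All 13 neutrophil markers of the table were above 0 in at least 1 sample. Their sums were 9785 to 28550 scaled TPM in the untreated and 16158 to 54727 in the LPS samples, and the second replicate had the highest sum in each group. Of these sums, 51.9 to 64.4% came from *S100a9*. Single genes did not follow the sum: 1 of the 13, *Cxcr2*, was called lower and 0 were called higher (1.31% and 1.69% of all genes tested). The LPS samples lay above the untreated ones in 1 of the 13 and below in 4 (13.1% and 9.75% of all genes tested). The 12 macrophage and monocyte markers, 0 of them at 0 throughout, summed to 1135 to 1556 untreated and 858 to 1140 after LPS, with 59.5 to 87.8% of the sum from *Lyz2*, a lysozyme gene that neutrophils also express. By gene, 1 of the 12, the complement gene *C1qb*, was called higher (0.712 to 4.75 scaled TPM untreated and 17.3 to 23.9 after LPS) and 0 were called lower. Of all genes tested, 1.69% were called higher and 1.31% lower. The LPS samples lay above the untreated ones in 3 of the 12 and below in 3 (13.1% and 9.75% of all genes tested). The 5 B cell markers summed to 142 to 550 and 67.3 to 237, the 6 T cell markers to 13.1 to 17.04 and 6.95 to 15.1, and the 2 erythroid markers to 16.3 to 1708 and 90.1 to 2546, with the third replicate highest in each group. The 4 mast cell markers summed to at most 51.3, the 4 platelet markers to at most 32.0, the 4 eosinophil markers, of which *Epx* was at 0 throughout, to at most 1.90, and the 3 mesothelial markers to at most 0.603 in any sample. In such bulk samples fewer cells of a type and less RNA per cell cannot be told apart.

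**Figure D1:**
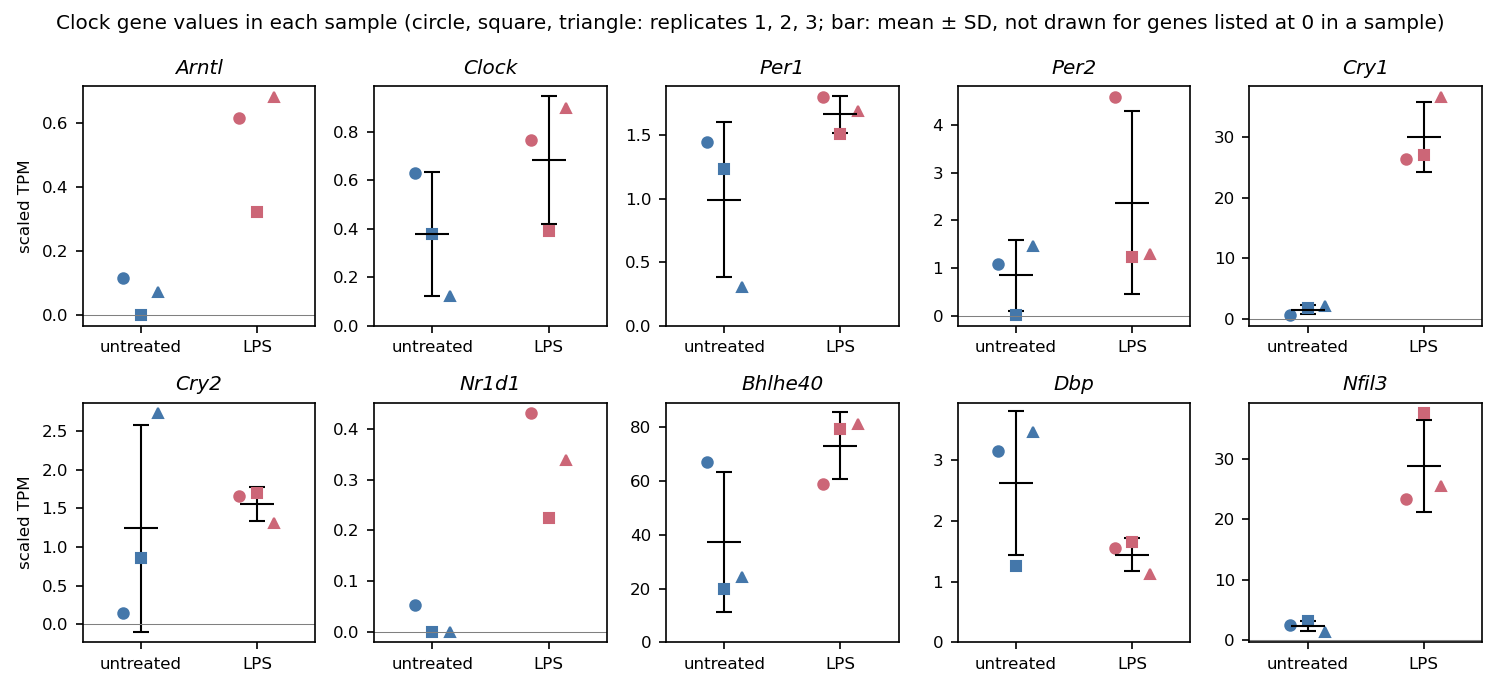
Values of the 10 clock genes in scaled TPM (vertical axes from 0 or just below, 1 scale per gene) in each untreated (blue) and LPS (red) sample, with the mean and SD (n = 3) where no sample is listed at 0. The LPS samples of *Cry1* (26.5 to 36.6) and *Nfil3* (23.4 to 37.4) lie far above the untreated ones, while those of *Cry2*, *Dbp*, *Per2*, *Clock* and *Bhlhe40* overlap with them.

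The activators of the loop were listed below 1 scaled TPM in every sample. These are averages over transcripts, of which the current annotation holds 85 for *Arntl* and 31 for *Clock*, and the number that the authors averaged is not known. *Arntl* (chromosome 7, 112806152 to 112914735 on GRCm39, plus strand), which encodes BMAL1 and is named *Bmal1* in the current annotation, was listed at 0.116, 0 and 0.0706 scaled TPM untreated and at 0.615, 0.321 and 0.681 with LPS. The LPS samples all lay above the untreated ones. The log2 change of *Arntl* was 0.53 (standard error 0.14) with an unadjusted p of 0.0104 and an adjusted p of 0.13 from limma. The p was just outside its limit, and the change was far below the fold limit of 2. With a pseudocount of 0.1 in place of 1 the difference was 2.00 on the log2 scale (adjusted p = 0.16), so its size rests on the constant added. *Clock*, the partner of BMAL1 (chromosome 5, 76342860 to 76452846, minus strand), was at 0.632, 0.379 and 0.123 scaled TPM untreated and at 0.767, 0.390 and 0.897 after LPS. These groups overlapped, and the change of 0.29 (95% interval -0.35 to 0.93, adjusted p = 0.56 from limma) was within the spread between samples. Part of *Clock*, 11.87% of its exonic bases, overlaps *Tmem165* on the opposite strand, and *Tmem165* was at 5.16 to 16.2 scaled TPM untreated and 16.5 to 31.8 after LPS.

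Among the repressors, *Cry1* rose and its paralog *Cry2* did not pass the test. *Cry1* (chromosome 10, 84967560 to 85021252, minus strand), whose protein binds and blocks BMAL1 with CLOCK, was at 0.677, 1.85 and 2.19 scaled TPM untreated and at 26.5, 27.0 and 36.6 after LPS. The lowest LPS sample was 12.1 times the highest untreated sample. The log2 change was 3.63 (standard error 0.37, unadjusted p = 5.5e-05, adjusted p = 0.016 from limma), the 53rd highest of the 23049 genes tested. It had no stretch of 150 bases or more at 95% identity or more to a transcript of another gene, and no gene shared its exonic bases.

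The call of *Cry1* held under all 17 alternatives, with changes of 2.41 to 4.56, and when each sample was left out in turn the change was 3.35 to 3.81. The adjusted p was less stable, being 0.127, 0.0634 and 0.146 without the first, the second and the third LPS sample. With the replicate number as a block in limma, the adjusted p was 0.080. Set to the same protein-coding total in each sample, the change was 3.26 (standard error 0.42, adjusted p = 0.024). Of the 12 macrophage and monocyte markers given above, *C1qb* was also called higher (log2 change 2.62, standard error 0.50, adjusted p = 0.064 from limma). Over the 12, the LPS samples lay above the untreated ones in 3 and below in 3 (13.1% and 9.75% of all genes tested). The part of these cells in the *Cry1* value was not tested.

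*Cry2* (chromosome 2, 92233894 to 92264474, minus strand), the paralog with the same role, was at 0.141, 0.858 and 2.73 scaled TPM untreated and at 1.66, 1.71 and 1.31 after LPS. The untreated samples spanned the LPS samples on both sides. The change was 0.36 (95% interval -0.84 to 1.55, adjusted p = 0.70 from limma), and without the first untreated sample it was -0.046. The log2 ratio of *Cry1* to *Cry2* within a sample, taken after adding 1 to each value, was 0.56, 0.62 and -0.22 untreated and 3.37, 3.37 and 4.03 after LPS. It was higher in all 3 LPS samples by 3.27 on average, with an exact two-sided permutation p of 0.1, the smallest that 3 against 3 samples can give, and 0.17 adjusted over 5 ratios.

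The *Per* genes, whose proteins form the repressing complex with CRY and respond to acute signals in many cells, were not called. *Per1* (chromosome 11, 68986035 to 69002300, plus strand) was at 1.45, 1.23 and 0.304 scaled TPM untreated and at 1.80, 1.51 and 1.69 after LPS. All 3 LPS samples were above the untreated ones, by a margin of 1.04 times between the nearest samples, and the change of 0.47 (95% interval -0.41 to 1.35, adjusted p = 0.55 from limma) did not pass. *Per2* (chromosome 1, 91343700 to 91387069, minus strand) was at 1.09, 0.0266 and 1.46 scaled TPM untreated and at 4.58, 1.24 and 1.30 after LPS. The first LPS sample stood apart, and the change of 0.82 (95% interval -0.51 to 2.14, adjusted p = 0.52 from limma) fell to 0.38 without it. The ratio of *Per1* to *Per2* differed between the groups by -0.35 on the log2 scale (exact two-sided permutation p = 0.5, n = 3 a group).

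*Nr1d1* (chromosome 11, 98658752 to 98666188, minus strand), which encodes the repressor REV-ERBα, was listed at 0.0522, 0 and 0 scaled TPM untreated and at 0.431, 0.225 and 0.339 after LPS. The groups did not overlap, and all values were below 0.5. The change was 0.39 (standard error 0.09) with an unadjusted p of 0.0038 and an adjusted p of 0.084 from limma, and its size kept it outside the fold limit. With a pseudocount of 0.1 it was 1.88 (adjusted p = 0.096). Of its exonic bases, 52.25% overlap *Thra* on the opposite strand. *Thra*, which encodes a thyroid hormone receptor, was at 0.0408, 2.71 and 1.16 scaled TPM untreated and at 0.178, 0.258 and 0.285 after LPS. The libraries were stranded per the labels, and whether strand was used in the quantification is not stated.

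*Bhlhe40* (chromosome 6, 108636626 to 108644502, plus strand), an E-box repressor also known as DEC1 and induced in many activated leukocytes, had the highest listed value of the 10 genes in every sample. It was at 67.0, 20.0 and 24.3 scaled TPM untreated and at 58.8, 79.1 and 81.1 after LPS. The first untreated sample was above the first LPS sample, while the other samples were apart. The change was 1.15 (95% interval -0.08 to 2.38, adjusted p = 0.32 from limma). Without the first untreated sample it was 1.67 (standard error 0.31, unadjusted p = 0.0029, adjusted p = 0.082), and in protein-coding scaling it was 0.67 (adjusted p = 0.56). That sample also had the highest B cell marker sum, 550 against 142 and 407 in the other untreated samples, and the part of this in the value was not tested.

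**Figure D2:**
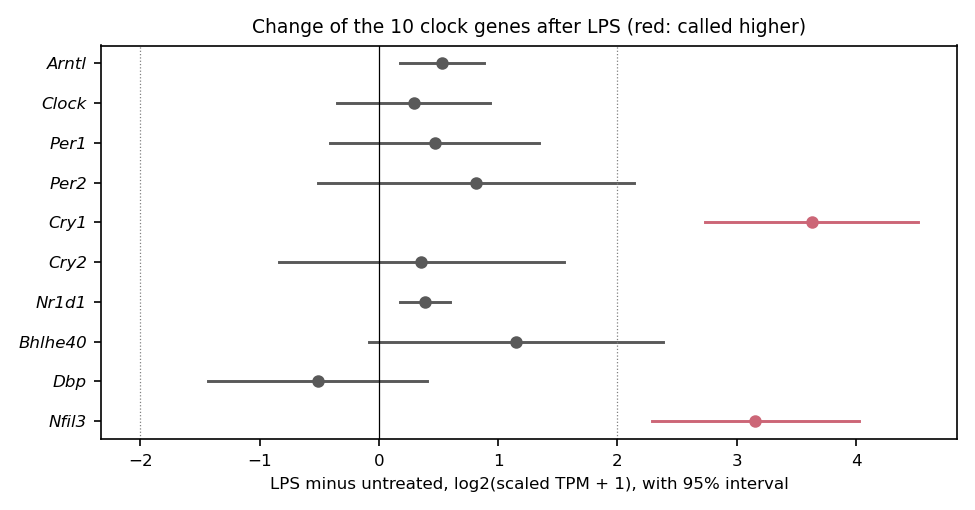
Change of each clock gene after LPS on the log2(scaled TPM + 1) scale (horizontal axis), with points for the limma estimate and lines for its 95% interval, and dotted lines at the fold limits of -2 and 2. *Cry1* at 3.63 and *Nfil3* at 3.16 lie beyond the limit with their whole intervals, *Dbp* at -0.51 is the lowest, and the intervals of *Clock*, *Per1*, *Per2*, *Cry2*, *Bhlhe40* and *Dbp* include 0.

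Of the output factors, which act on the same D-box elements, *Nfil3* rose and *Dbp* did not pass the test. *Nfil3* (chromosome 13, 53121245 to 53137010, minus strand), also known as E4BP4, was at 2.43, 3.19 and 1.44 scaled TPM untreated and at 23.4, 37.4 and 25.5 after LPS. The lowest LPS sample was 7.34 times the highest untreated one. The log2 change was 3.16 (standard error 0.35, unadjusted p = 1.0e-04, adjusted p = 0.021 from limma), the 114th highest of all genes tested. The second replicate, which had the highest neutrophil marker sum in each group, had the highest *Nfil3* value in each group. The part of neutrophil content in the *Nfil3* value was not tested. Non-coding genes on the opposite strand share exonic bases with *Nfil3*, *Gm40950* with 7.79% and *Gm61210* with 2.69%.

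The call of *Nfil3* held under all 17 alternatives, with changes of 2.18 to 4.01, and with each sample left out in turn the change was 2.94 to 3.34. Its adjusted p was 0.143, 0.0634 and 0.154 without the first, the second and the third LPS sample and 0.0517 without the third untreated sample. With the replicate number as a block in limma, the adjusted p was 0.082. In protein-coding scaling the change was 2.76 (standard error 0.30, adjusted p = 0.017).

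*Dbp* (chromosome 7, 45354512 to 45359627, plus strand), the D-box activator and in many tissues a strongly rhythmic clock output, was at 3.15, 1.26 and 3.46 scaled TPM untreated and at 1.55, 1.65 and 1.13 after LPS. Of the 10 genes it alone had a negative change, -0.51 (95% interval -1.43 to 0.41, adjusted p = 0.55 from limma), and the second untreated sample lay among the LPS samples. With voom the change was 0.018. Its exonic bases overlap *Sphk2* on the opposite strand over 15.53%, and *Sphk2* was at 8.65 to 20.6 scaled TPM untreated and 5.61 to 16.8 after LPS. The log2 ratio of *Nfil3* to *Dbp* was -0.27, 0.89 and -0.87 untreated and 3.26, 3.86 and 3.64 after LPS. It was higher in all 3 LPS samples by 3.67 on average (exact two-sided permutation p = 0.1, the smallest possible with 3 against 3, adjusted p = 0.17 over 5 ratios).

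The remaining ratios were those of the activator *Arntl*. Its log2 ratio to *Clock* was -0.55, -0.46 and -0.07 untreated and -0.13, -0.07 and -0.17 after LPS, which overlap (exact two-sided permutation p = 0.4, n = 3 a group). Its ratio to *Nr1d1* was 0.08, 0 and 0.10 untreated and 0.17, 0.11 and 0.33 after LPS, a difference of 0.14 (exact two-sided permutation p = 0.1, n = 3 a group). All values behind these ratios are below 1 scaled TPM and the ratios lie close to 0 because 1 was added to each.

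**Figure D3:**
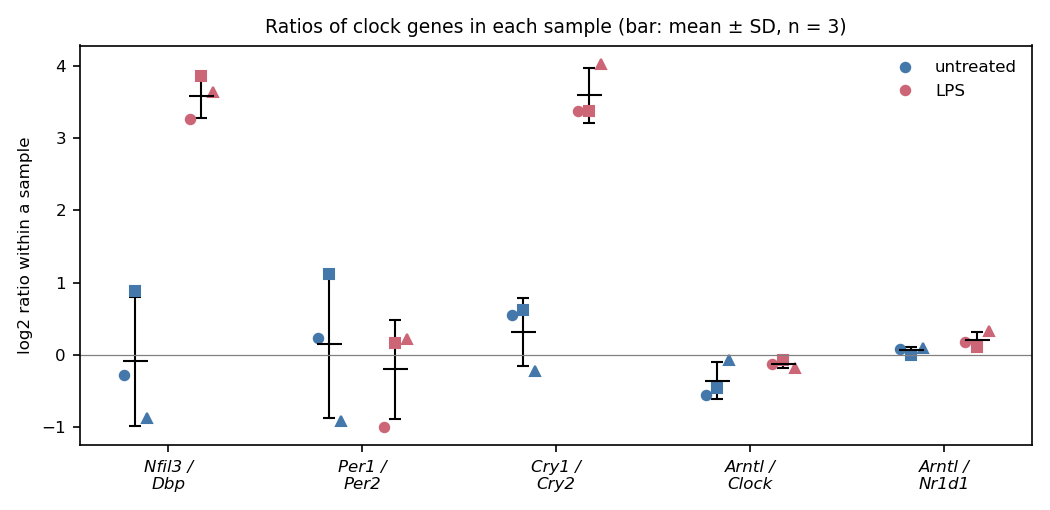
Log2 ratio of (scaled TPM + 1) between pairs of clock genes within each sample (vertical axis), untreated in blue and LPS in red, with the mean and SD of 3 samples. The ratios *Nfil3* to *Dbp* and *Cry1* to *Cry2* lie at 3.26 or more in the LPS samples and at 0.89 or less in the untreated samples, while *Per1* to *Per2* and *Arntl* to *Clock* overlap.

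Over the 10 genes, all 3 LPS samples were above all 3 untreated samples in 5, *Arntl*, *Per1*, *Cry1*, *Nr1d1* and *Nfil3*, and below in 0, where 13.1% and 9.75% of all genes tested did so. The change was above 0 in 9 of the 10 and in 52.9% of all genes. Of the 5, *Cry1* and *Nfil3* reached 10 scaled TPM in the LPS samples. A mean of at least 1 scaled TPM over all samples, a filter on low values, was met by 7 of the 10 genes and not by *Arntl*, *Clock* and *Nr1d1*. Besides the overlaps already given, genes on the opposite strand shared 6.96% of the exonic bases of *Bhlhe40*, 4.36% of *Per1*, 3.45% of *Cry2* and up to 1.4% of *Arntl*. On the same strand, transcripts of other genes matched *Arntl* over at most 157 bases (95.5% identity) and *Clock* over 213 bases (95.8% identity).

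None of the other genes of the clock machinery was called. Of 31 listed genes 22 were in the table and tested, and 0 were called in either direction, by p with fold or by adjusted p with limma. At an unadjusted p under 0.05, 2 were higher and 3 lower, against 10.3% and 6.66% of all genes tested, and with voom *Skp1* was called higher. The LPS samples lay above the untreated ones in 4 of the 22 and below in 5, against 13.1% and 9.75% of all genes, and the median change was 0.10.

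Among paralogs and loop factors, *Bhlhe41*, the paralog of *Bhlhe40*, was at 6.11, 0.530 and 11.1 scaled TPM untreated and at 0.772, 0.766 and 0.751 after LPS. The untreated samples were far apart, and the change of -1.53 (standard error 0.77, adjusted p = 0.38 from limma) was called lower when the second untreated sample was left out (-2.40). That sample had the lowest B cell marker sum of the untreated samples, and its part in the value was not tested. *Ciart*, a repressor of BMAL1 with CLOCK, was at 0.191, 1.504 and 4.98 untreated and at 5.27, 1.57 and 3.10 after LPS, without a difference beyond that spread (0.63, adjusted p = 0.62 from limma).

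Among the phosphatase genes, which act on PER proteins, the differences of the catalytic subunits had opposite signs and neither was called. *Ppp1cb* was at 2.23, 16.5 and 25.3 scaled TPM untreated and at 30.1, 51.2 and 31.4 after LPS (1.72, adjusted p = 0.35 from limma, and 0.81 without the first untreated sample). *Ppp1cc* was at 19.7, 28.8 and 28.7 untreated and at 13.5, 12.2 and 13.6 after LPS (-0.90, adjusted p = 0.18 from limma). The groups did not overlap in either gene.

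Of the ubiquitin ligase parts through which PER and CRY proteins are degraded, *Skp1*, a ligase scaffold, was at 4.41, 2.10 and 0.395 scaled TPM untreated and at 11.2, 8.68 and 8.55 after LPS (1.86, standard error 0.54, adjusted p = 0.15 from limma). Without the first untreated sample its change was 2.32 and it was called higher. *Fbxw11*, an F-box protein that recognises phosphorylated PER, was at 4.95, 10.6 and 2.41 untreated and at 10.5, 16.5 and 12.8 after LPS (1.18, adjusted p = 0.32 from limma), with overlap.

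Of the corepressors and other clock genes, *Ncor1*, the corepressor of REV-ERBα, was at 7.75, 7.53 and 6.39 scaled TPM untreated and at 3.60, 4.01 and 2.98 after LPS (-0.86, standard error 0.28, adjusted p = 0.19 from limma). *Noct*, which encodes the rhythmic factor nocturnin, was at 15.3, 18.7 and 20.2 untreated and at 8.88, 10.2 and 11.1 after LPS (-0.78, standard error 0.28, adjusted p = 0.23 from limma). In both genes every LPS sample was below every untreated sample, the adjusted p missed the limit and the change was within the fold limits. In 1 of 17 alternatives the adjusted p from limma was under 0.05, at 0.028 for *Ncor1* and 0.047 for *Noct*.

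**Figure D4:**
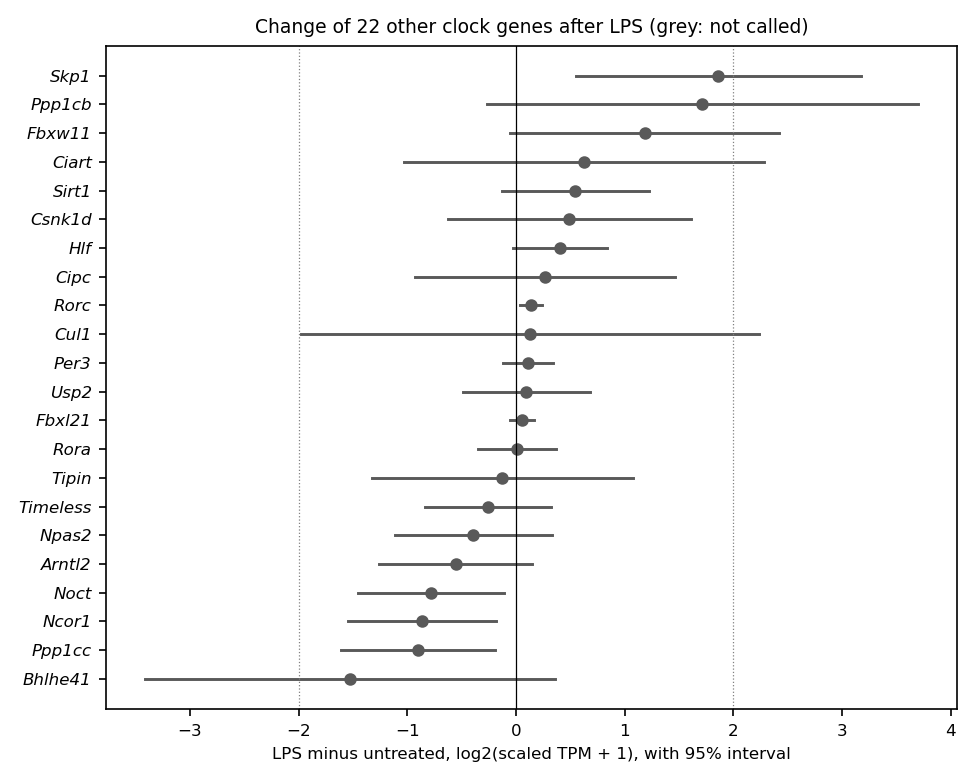
Change of the 22 other clock genes after LPS on the log2(scaled TPM + 1) scale (horizontal axis), with limma estimates as points and 95% intervals as lines, ordered by the estimate, and dotted lines at the fold limits of -2 and 2. The estimates run from -1.53 for *Bhlhe41* to 1.86 for *Skp1*, and none was called.

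Genes known from other work to respond to clock factors were set beside the clock genes. Of 7 known REV-ERBα targets of myeloid cells, 4 were called higher and 0 lower (1.69% and 1.31% of all genes tested), with a median change of 2.22. The list was written with earlier results of these data known, so these counts are a description and not a test. *Ccl2* (0.36), *Mmp9* (-1.56) and *Cx3cr1* (-0.58) were not called. Their groups overlapped in *Ccl2* and *Mmp9*, and in *Cx3cr1* every LPS sample was below every untreated one. *Nlrp3*, the inflammasome sensor, was at 12.4 to 33.7 scaled TPM untreated and 238 to 327 after LPS. The chemokine *Cxcl2* was at 77.7 to 204 and 1336 to 2381, the cytokine *Il1b* at 178 to 478 and 972 to 2353, and *Il6* at 0 to 0.728 and 2.39 to 11.6. *Il6* and *Il1b* each lost their call in 6 of 17 alternatives. For *Il6* these include the first or second untreated and the first or the third LPS sample left out (changes of 2.59, 2.43, 2.28 and 2.34), and for *Il1b* the first or the third untreated and the second or the third LPS sample (1.79, 2.37, 1.90 and 2.22).

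Of 8 genes of the daily programme of neutrophils, 3 were called higher and 1 lower (1.69% and 1.31% of all genes tested), with a median change of -0.13. Besides *Cxcl2*, these were *Icam1*, an adhesion molecule, at 16.3 to 24.8 scaled TPM untreated and 336 to 467 after LPS, and *Mki67*, a gene of dividing cells, at 0.197 to 1.17 and 3.78 to 9.28. *Cxcr2*, the receptor that CXCL2 acts on, fell from 39.4 to 120 untreated to 7.10 to 23.6 after LPS (-2.67, standard error 0.62, adjusted p = 0.094 from limma). That call was lost in 5 of 17 alternatives, among them without the second or the third untreated and the first or the third LPS sample (-2.36, -2.49, -2.36 and -2.49). *Mki67* lost its call in 6 of 17, among them without the second untreated and the first or the third LPS sample (1.84, 2.07 and 1.81). Both lists were written with earlier results of these data known.

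The genes whose profiles over the 6 samples were closest to those of the clock genes with the strongest tests were found by the root mean square difference of log2 values, each centred on its own mean, among genes with a mean of at least 1 scaled TPM. Closest to *Cry1* were *Pwp1* (0.20), *Irf5* (0.24), a transcription factor of inflammatory signalling, and *Snx3* (0.27). *Pwp1* was at 1.27, 3.21 and 4.75 scaled TPM untreated and at 31.6, 37.7 and 44.6 after LPS. Closest to *Nfil3* were the non-coding gene *Gm32515* (0.23), the proteasome subunit gene *Psma1* (0.23) and the non-coding gene *Gm11665* (0.27), which was listed at 0 in all untreated samples. Closest to *Nr1d1* were *Ttc14* (0.04), *Immt* (0.05) and *Gigyf2* (0.08), and this likeness rests on the 1 added to each value, since *Nr1d1* was listed below 0.5 and these genes above 1 in every sample. These differences describe likeness over 6 samples of 2 groups and carry no test.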

How the data were processed

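RNA sequencing values of 6 samples of cGAS-/- neutrophils, 3 untreated and 3 LPS by sample title, were analysed. Per the methods and labels, the authors used fastp for trimming, STAR for alignment to GRCm39, Kallisto for quantification and edgeR for normalization (versions and annotation not given in the sources used here, and the labels also name mm10). The deposited values are TPM, averaged by the authors per gene over its transcripts and scaled by a factor for each sample. Of 8131 values between 1 and 1000 in the third untreated sample, 7110 end within 6 decimals and 1009 more do so once multiplied by a whole number of at most 50, as averages would. They keep no read depth, so replicate spread is the measure of precision, and no test was run on counts. Voom, which is made for counts, was run on these values only as an alternative, with a median log2 change of 0.67 over all genes tested.

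Genes above 0 in at least 1 sample (23049) entered two-sided tests with limma 3.58.1 (R 4.3.3, eBayes with trend, no covariates) on log2(value + 1), which understates changes of low genes, with Benjamini-Hochberg adjustment over all of them. Within-sample ratios were tested with exact permutations (scipy 1.17.1). Positions are from GENCODE M39 (GRCm39), by name or, for *Arntl* and *Arntl2*, by alias, and promoter windows from RefSeq (GRCm38.p6). Near-identical stretches were sought with blastn among GENCODE transcripts. The script was checked with a self-test. Genes named are the 10 clock genes, the called genes of the other lists and, per subgroup, the 2 largest changes among genes with a mean of at least 1, and the 3 closest profiles for each of 3 clock genes. *Thra*, *Sphk2*, *Tmem165*, *Gm40950*, *Gm61210*, *C1qb*, *Lyz2*, *S100a9*, *Ccl2*, *Mmp9*, *Cx3cr1* and *Cgas* were named besides, after their values were seen. The members and lists were chosen with earlier results of these data known. Alternatives were other pseudocounts, a filter, scalings, no trend, the replicate block, voom, another limit and leaving out each sample, and 2 combinations of a scaling with the block were added after seeing the data. Listed genes absent from the table were not analysed here.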

Additional observations from a re-analysis of the deposited data

How the results depend on the processing

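*Cry1* and *Nfil3* were called higher, and 0 clock genes lower, under every alternative run. Of 167 values of single clock genes under alternatives, 165 kept their direction and their side of the limits, and 2 turned direction, *Cry2* without the first untreated sample (-0.046, and -0.046 to 0.808 over the samples left out) and *Dbp* with voom (0.018), neither of them called. Of 255 values of the other named genes, 229 kept both, 23 lost a call and 3 gained one. Over all genes, calls ranged most with the pseudocount (856 higher and 493 lower with 0.1, 129 and 168 with 5), with scaling to the protein-coding total (221 and 516, and 218 and 535 together with the replicate block), with voom (1552 and 177) and with an adjusted p under 0.05 and no fold limit (206 higher). Leaving out 1 sample gave 260 to 463 higher and 263 to 394 lower. In the fit with a replicate block, 387 genes were called higher and 303 lower, 2 clock genes among the higher, while *Cry1* (adjusted p = 0.080) and *Nfil3* (adjusted p = 0.082) no longer passed an adjusted p of 0.05. Deviations of samples with the same number correlated by 0.10, 0.22 and 0.09, and those with different numbers by -0.15 to 0.066, each sample correlating best with its own number. This was not taken as a pairing because 1 value is under 0.1, a limit chosen here. Whether the numbers pair the samples is not known, and if they do, the main fit and the fits without 1 sample ignore it. With the block the standard error fell from 0.52 to 0.21 for *Il1b* and from 0.62 to 0.37 for *Cxcr2*. For *Cry1* it went from 0.37 to 0.34 and for *Nfil3* from 0.35 to 0.33, and for *Nlrp3* it rose from 0.42 to 0.44. Among the ratios, a pseudocount of 5 gave 2.42 for *Nfil3* to *Dbp*, 2.32 for *Cry1* to *Cry2*, 0.049 for *Arntl* to *Clock* and 0.042 for *Arntl* to *Nr1d1*, and a pseudocount of 0.1 gave 1.19 for *Arntl* to *Clock*. *Per1* to *Per2* ranged from -0.88 to 0.14 as each sample was left out, turning direction without the second untreated sample (0.14) and without the first LPS sample (0.051). The causes were not tested. The unknown depth leaves low values without a counting error, among them those under 1 scaled TPM in every sample for *Arntl*, *Clock* and *Nr1d1* and in at least 1 untreated sample for *Per1*, *Per2*, *Cry1* and *Cry2*.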
